A study of Mus musculus with 18 samples.

Results

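*Cd109*, *Vsnl1*, *Ccdc3*, *Fads2b* and *Xkr4* are 5 genes that are seldom used to describe airway basal cells, and all were counted at a higher level in the libraries of mouse tracheal basal stem cells (BSCs) than elsewhere in this series. They were picked by symbol, for their high counts in the BSC libraries against the other groups, from 27179 genes counted, and all 5 were among the 17989 genes that passed the filter on low counts. Their excess in BSCs is therefore what chose them. It is given as a description without a test, and tests are given only for contrasts that leave the BSC libraries out and for other genes.

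RNA was sequenced from 6 sorted cell populations of untreated C57BL/6 mice, young adult males by the study's methods, with 3 libraries each and 18 in all. Tracheal epithelium of mice 1 to 3 was divided by the nerve growth factor receptor into NGFR-positive cells (BSC) and NGFR-negative cells (Non-basal). Lungs of mice 4 to 6 gave 2 airway luminal fractions, both EpCAM-positive and CD104-positive, with high CD24 (CD24hi, enriched in ciliated cells) or low CD24 (CD24lo, enriched in club cells). The same lungs gave EpCAM-positive cells low in CD104 (Alveolar) and EpCAM-negative cells, which are not epithelial. Organ, animals and depth change together between the tracheal and the lung populations and cannot be told apart there. The tracheal libraries held 29317215 to 32993621 counted reads and the lung libraries 9811503 to 13208897, so that a low count in lung carries more counting error.

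Marker sums are given as CPM, which are counts scaled to a common library size, after TMM scaling. Basal markers summed highest in BSC, club in CD24lo, ciliated in CD24hi, alveolar type 2 in Alveolar and mesenchymal in EpCAM-negative libraries. Each list was read elsewhere too. The 5 club markers summed to 14381 to 16553 CPM in BSC libraries, above the basal sum there. In CD24lo libraries alveolar type 2 markers summed to 6805 to 8754 CPM. Endothelial markers summed to 422.6 to 805.2 CPM there and 464.2 to 707.2 in EpCAM-negative libraries. The 9 basal markers summed to 9994.3 to 10484 CPM in the BSC libraries and 2391 to 3034 in Non-basal libraries, so the NGFR-negative gate retained basal transcripts. They also summed to 454.4 to 652.5 CPM in CD24lo and 290.3 to 392.2 in CD24hi libraries, against 18.4 to 27.8 in Alveolar libraries. As these are bulk libraries, fewer cells of a type and less RNA per cell cannot be told apart. The 5 immune markers summed to 6840 to 9680 CPM in Non-basal libraries 466.5 to 749.4 in BSC and 42349 to 50843 in Alveolar libraries. Most of each of these sums was *Lyz2*, at 7754 CPM in Non-basal, 440.2 in BSC and 43224 in Alveolar cells, whereas *Ptprc*, the pan-leukocyte marker, was at 9.58, 6.56 and 4.83 CPM. Their part in differences between these populations was not tested. The EpCAM-negative libraries held 26718 to 28188 CPM of 6 mesenchymal markers. Of those 6, *Dcn* averaged 334.9 CPM in BSCs while *Col1a1* averaged 0.094 CPM there.

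Basal cells are the stem cells of the pseudostratified airway lining. They sit on the basement membrane, carry keratins 5 and 14 and the factor p63, and give rise to club and ciliated cells. The 5 genes described here belong to unrelated families. *Cd109* encodes a membrane-anchored relative of alpha-2-macroglobulin that binds TGF-beta and can restrain its receptors. *Vsnl1* encodes visinin-like protein 1, a calcium sensor best known from neurons. *Ccdc3* encodes a small secreted coiled-coil protein, *Fads2b* a protein of the fatty acid desaturase family, and *Xkr4* a member of the XK family whose relatives scramble membrane phospholipids when caspases cut them.

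The genes lie apart from each other on 4 chromosomes of GRCm38 (mm10). *Cd109* is on the plus strand at chr9:78615546-78716260 with up to 33 exons, and *Vsnl1* on the minus strand at chr12:11325257-11436578 with 4. *Ccdc3* (plus strand, chr2:5137311-5235967, 3 exons) and *Fads2b* (minus strand, chr2:85484092-85518935, 12 exons) share a chromosome, and *Xkr4* is on the minus strand at chr1:3199733-3671948 with 3 exons. RefSeq's promoter table for GRCm38.p6 had entries for 3 of the 5. The 250 bases before the start sites of those 3 are shown because they differ in the CpG pairs, printed in capitals, that a promoter holds. The windows are chr12:11436579-11436828 on the minus strand for the first of 2 start sites of *Vsnl1*, chr2:5137526-5137775 on the plus strand for *Ccdc3* and chr2:85518936-85519185 on the minus strand for *Fads2b*.
Vsnl1: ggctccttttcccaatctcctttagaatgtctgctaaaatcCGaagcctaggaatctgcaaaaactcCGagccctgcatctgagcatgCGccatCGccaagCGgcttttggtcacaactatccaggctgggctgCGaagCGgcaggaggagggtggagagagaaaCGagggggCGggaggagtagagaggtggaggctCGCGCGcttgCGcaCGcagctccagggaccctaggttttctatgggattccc
Ccdc3: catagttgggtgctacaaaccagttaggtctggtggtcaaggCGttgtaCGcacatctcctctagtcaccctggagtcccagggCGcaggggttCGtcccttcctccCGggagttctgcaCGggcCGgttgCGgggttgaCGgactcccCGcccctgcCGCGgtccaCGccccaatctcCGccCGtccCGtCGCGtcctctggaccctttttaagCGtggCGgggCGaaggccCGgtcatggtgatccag
Fads2b: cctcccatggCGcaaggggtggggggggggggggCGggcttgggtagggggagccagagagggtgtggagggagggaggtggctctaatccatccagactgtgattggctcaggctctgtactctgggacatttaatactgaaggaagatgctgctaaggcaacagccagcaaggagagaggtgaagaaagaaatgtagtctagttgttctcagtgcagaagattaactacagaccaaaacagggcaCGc

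The *Ccdc3* window precedes a start site that lies within the RefSeq gene span given above. *Ccdc3* held 22 CpG pairs in its window and *Vsnl1* 14, above the median of 6 over 32851 promoter windows of the same length (percentiles 86.7 and 72.7). *Fads2b* held 3, at percentile 37.8. The other start site of *Vsnl1*, at chr12:11435652-11435901, held 4. Motifs were searched on both strands of these windows. None held the TATA motif TATAAA (found in 12.4% of all windows), a spaced pair of the CATG core that p63 binds (0.49%), the AP-1-type motif TGANTCA (6.75%) or the TEAD-type motif GGAATG (12.6%).

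The levels in BSCs differed widely per length. RPKM values (the same scaled counts per kilobase of the deposited gene length) ordered the genes as *Ccdc3* at 178.8 ± 2.39 (SD, n = 3), *Fads2b* at 54.7 ± 1.69, *Vsnl1* at 30.8 ± 1.57, *Cd109* at 30.1 ± 3.21 and *Xkr4* at 0.852 ± 0.169. *Vsnl1* and *Cd109* lay within 1 SD of each other and the other neighbours in this order did not overlap. The BSC libraries were above every library of each other population for each gene, in all 25 pairs of a gene and a population, which is the pattern the genes were picked for. At the adjusted threshold of 0.05, BSCs exceeded Non-basal cells for 21.9% of all genes tested and Alveolar cells for 30.5%, and nothing is read from the members' count against these shares.

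**Figure D1:**
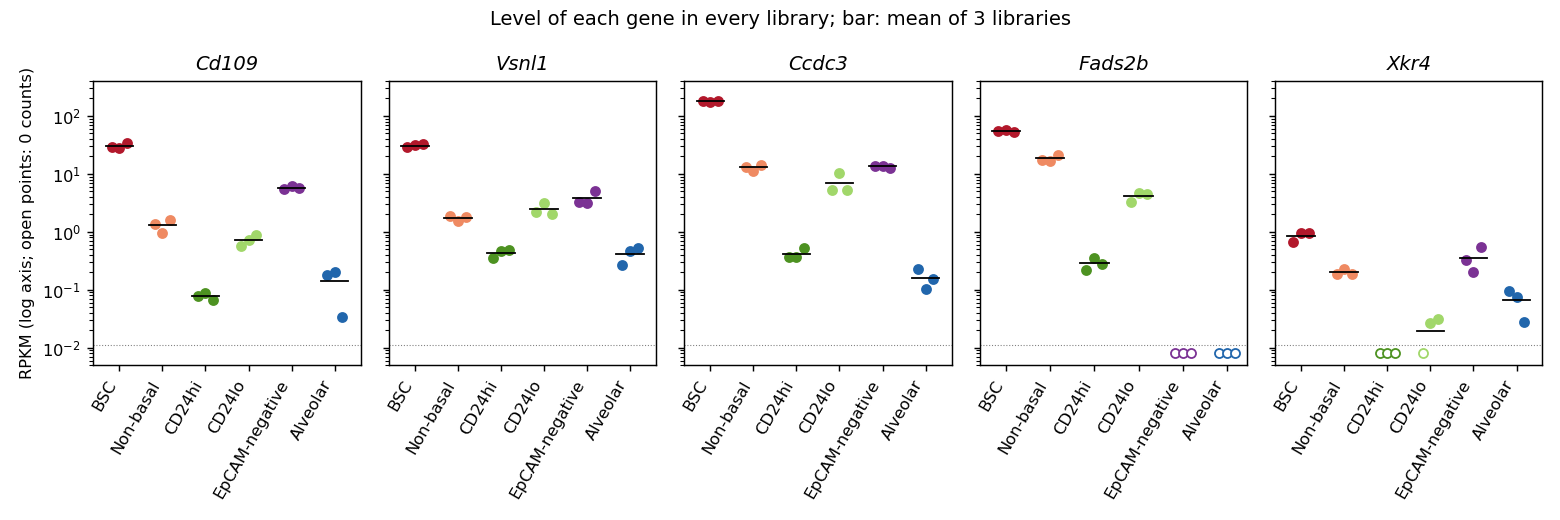
RPKM of the 5 genes (log axis) in each of the 18 libraries, 1 point per library, with a bar for the mean of each population; open points below the dotted line have 0 counts. The BSC libraries stand highest in each panel, and the population in 2nd place differs: EpCAM-negative for *Cd109*, *Vsnl1* and *Xkr4*, Non-basal for *Fads2b*, and both alike for *Ccdc3*.

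*Cd109* was counted 5923, 5888 and 7005 times in the BSC libraries and 240, 157 and 292 times in the Non-basal libraries of the same mice. The EpCAM-negative libraries, which were less deep, held 396, 433 and 448 reads, that is 5.78 ± 0.338 RPKM (SD, n = 3) against 1.32 ± 0.347 in Non-basal cells. In the lung epithelium, CD24lo libraries held 37, 44 and 45 reads, Alveolar libraries 12, 13 and 2, and CD24hi libraries 6, 7 and 5. The summed level in BSCs was thus 5.20 times that in EpCAM-negative cells, 22.6 times that in Non-basal cells, 41.6 times that in CD24lo, 209.7 times that in Alveolar and 386.4 times that in CD24hi cells. Outside BSCs the level fell in the order EpCAM-negative, Non-basal, CD24lo and then Alveolar with CD24hi, whose libraries overlapped.

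*Vsnl1* was counted 1981, 2169 and 2209 times in BSC libraries and 105, 85 and 109 times in Non-basal libraries. EpCAM-negative libraries held 78, 75 and 131 reads and CD24lo libraries 46, 63 and 34. CD24hi libraries (9, 12 and 12 reads) and Alveolar libraries (6, 10 and 10 reads) were lowest and overlapped. BSCs stood 7.91 times above EpCAM-negative, 12.4 times above CD24lo, 17.6 times above Non-basal, 71.2 times above CD24hi and 73.6 times above Alveolar cells.

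*Ccdc3* was the most abundant of the 5, with 16812, 16970 and 17039 reads in the BSC libraries and 1042, 855 and 1155 in the Non-basal libraries. EpCAM-negative libraries held 462, 439 and 447 reads, or 13.4 ± 0.592 RPKM (SD, n = 3), which overlapped the 12.9 ± 1.47 RPKM of Non-basal cells. CD24lo libraries held 150, 276 and 123 reads, CD24hi libraries 13, 13 and 18, and Alveolar libraries 7, 3 and 4. The summed BSC level was 13.3 times that of EpCAM-negative, 13.8 times that of Non-basal, 25.8 times that of CD24lo, 426.9 times that of CD24hi and 1092 times that of Alveolar cells. In the GENCODE annotation 1845 of the 2670 exonic bases of *Ccdc3* (69.1%) also lie in exons of *Gm26776*, a long non-coding RNA on the opposite strand, and the strand setting of the counting is not given in the sources used here. Reads of *Ccdc3* and *Gm26776* can therefore not be told apart over that stretch. Exons of the other 4 genes overlapped no exon of another gene.

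*Fads2b* was counted 3236, 3439 and 3164 times in BSC libraries and 857, 809 and 1095 times in Non-basal libraries, the narrowest gap between these populations of the 5 genes. CD24lo libraries held 60, 81 and 67 reads and CD24hi libraries 5, 8 and 6. No read was counted in any of the 3 EpCAM-negative or 3 Alveolar libraries. The summed BSC level was 2.95 times that of Non-basal, 13.2 times that of CD24lo and 191.4 times that of CD24hi cells. Against a floor of 3 counts over the group, it was at least 1158-fold higher than in EpCAM-negative and at least 986.7-fold higher than in Alveolar cells. *Fads2b* was thus read only in the 4 populations of airway epithelium.

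*Xkr4* was the rarest, with 84, 124 and 123 reads in BSC libraries, 20, 24 and 21 in Non-basal libraries and 15, 9 and 26 in EpCAM-negative libraries. Alveolar libraries held 4, 3 and 1 reads, CD24lo libraries 0, 1 and 1, and CD24hi libraries none. The summed BSC level was 2.34 times that of EpCAM-negative cells (95% exact counting interval 1.73 to 3.21), 4.22 times that of Non-basal cells (3.23 to 5.60) and 12.4 times that of Alveolar cells (6.24 to 29.1). It was 46.1 times that of CD24lo cells, with an interval of 12.7 to 382.1 since only 2 reads were counted there, and at least 40.8-fold higher than in CD24hi cells. These intervals cover counting error only.

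NGFR-positive and NGFR-negative cells came from the same tracheas, so the Non-basal level can be set against the BSC level mouse by mouse. *Cd109* kept 3.39% to 4.85% of its BSC level in the Non-basal cells of the 3 mice, *Vsnl1* 4.98% to 6.35% and *Ccdc3* 6.40% to 7.82%. Basal markers in the same libraries kept 6.58% to 8.80% (*Krt5*, a basal keratin), 4.35% to 7.02% (*Krt14*, its partner), 8.45% to 11.8% (*Ngfr*, the gene of the sorting gate), 10.3% to 16.3% (*Trp63*, the gene of p63), 7.61% to 9.55% (*Col17a1*, a hemidesmosome collagen) and 5.82% to 8.20% (*Dsg3*, a desmosomal cadherin). The shares of *Cd109*, *Vsnl1* and *Ccdc3* thus lay in or below the range of these markers. *Fads2b* kept 29.9% to 39.9% and *Xkr4* 19.7% to 28.5%, above *Krt5*, *Krt14*, *Trp63* and *Ngfr* in each mouse. *Itgb4*, an integrin of the hemidesmosome, kept 17.1% to 20.7%, below *Fads2b* in each mouse and below *Xkr4* in mice 1 and 2. Both *Fads2b* and *Xkr4* stayed below *Krt15* (42.4% to 53.2%) and *Pdpn* (41.9% to 45.5%).

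**Figure D2:**
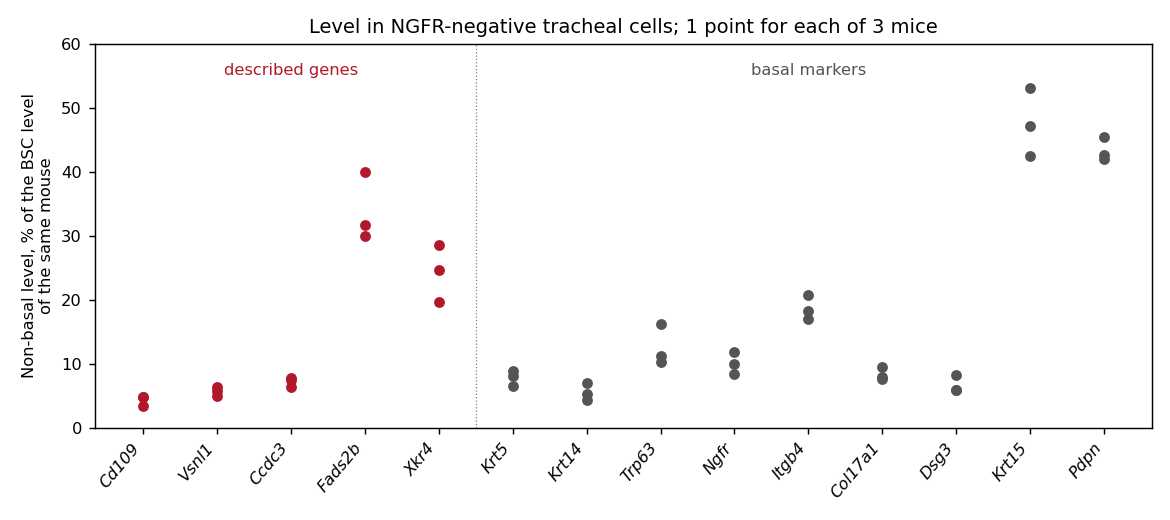
Level in Non-basal cells as a percent of the BSC level of the same mouse (linear axis from 0), 1 point for each of 3 mice, for the 5 genes (red) and 9 basal markers (grey). *Cd109*, *Vsnl1* and *Ccdc3* lie between 3.39% and 7.82%, *Xkr4* and *Fads2b* between 19.7% and 39.9%.

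The choice of the genes set the other populations only as the low side, and 10 contrasts among these 5 populations tested how the genes differed there. Of 50 gene and contrast pairs, 49 could be tested, as *Fads2b* had no read in both EpCAM-negative and Alveolar cells. Of these, 44 were called at an adjusted p-value under 0.05. Populations this different yielded many calls over all genes: 68.4% of the genes tested were called between Non-basal and CD24hi cells, 53.1% between Non-basal and CD24lo, 71.6% between Non-basal and EpCAM-negative and 64.0% between Non-basal and Alveolar. The share was 55.0% between CD24hi and CD24lo, 72.2% between CD24hi and EpCAM-negative, 61.9% between CD24hi and Alveolar, 63.4% between CD24lo and EpCAM-negative, 48.4% between CD24lo and Alveolar and 61.9% between EpCAM-negative and Alveolar.

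Within the lung, where all 4 populations came from the same 3 mice at like depth, the club-enriched CD24lo fraction held more of 4 of the 5 genes than the cilia-enriched CD24hi fraction. *Ccdc3* gave a log2 of CD24hi minus CD24lo of -4.04 (SE 0.27, adjusted p = 1.794e-09), *Fads2b* -3.85 (SE 0.24, adjusted p = 1.296e-08), *Cd109* -3.21 (SE 0.38, adjusted p = 1.405e-06) and *Vsnl1* -2.51 (SE 0.28, adjusted p = 5.332e-07). *Xkr4*, with 0 and 2 reads, gave an adjusted p = 0.121 and was near the limit of detection in both. Most basal markers lay the same way, with 454.4 to 652.5 CPM in CD24lo and 290.3 to 392.2 CPM in CD24hi libraries over the list, *Krt5* at 2.78% and 0.233% of its BSC level and *Trp63* at 9.30% and 0.957%. *Itgb4*, which encodes the CD104 of the gate, lay the opposite way, at 11.9% in CD24lo and 33.6% in CD24hi cells, and *Dsg3* was at 0.0512% and 0. The part of basal cells in these values was not tested.

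CD24lo cells also exceeded Alveolar cells, by log2 values of 5.38 for *Ccdc3* (SE 0.33, adjusted p = 3.175e-10), 2.55 for *Vsnl1* (SE 0.29, adjusted p = 9.935e-07) and 2.34 for *Cd109* (SE 0.36, adjusted p = 2.928e-05). *Fads2b*, at 208 reads against 0, was at least 74.9-fold higher in CD24lo cells. *Xkr4* was at 2 and 8 reads and did not pass (adjusted p = 0.143). CD24hi and Alveolar cells were close for *Vsnl1*, at a ratio of 1.03 with a counting interval of 0.599 to 1.799 (adjusted p = 0.934). For *Cd109* the Alveolar level was 1.84 times that of CD24hi cells, with an interval of 0.978 to 3.55 (adjusted p = 0.165). Without the third Alveolar library, which held 2 reads against 12 and 13, this difference was called (log2 of CD24hi minus Alveolar -1.28, adjusted p = 0.0223). *Ccdc3* was higher in CD24hi than in Alveolar cells (log2 1.34, SE 0.50, adjusted p = 0.0257), but leaving out CD24hi library 1 or 3 or Alveolar library 2 or 3 gave adjusted p-values of 0.0521, 0.0940, 0.0952 and 0.0556, and limma voom gave 0.0671.

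Non-epithelial cells of the lung held 4 of the 5 genes at levels above lung epithelium. *Cd109* was higher in EpCAM-negative than in Alveolar cells by a log2 value of 5.33 (SE 0.28, adjusted p = 1.869e-11), *Ccdc3* by 6.34 (SE 0.31, adjusted p = 6.405e-12), *Vsnl1* by 3.20 (SE 0.27, adjusted p = 1.042e-08) and *Xkr4* by 2.38 (SE 0.51, adjusted p = 0.000796). Against CD24lo cells the same 4 genes were higher too, with a log2 of CD24lo minus EpCAM-negative of -2.99 for *Cd109* (adjusted p = 1.822e-09), -0.96 for *Ccdc3* (adjusted p = 0.0002285), -0.64 for *Vsnl1* (adjusted p = 0.0108) and -4.16 for *Xkr4* (adjusted p = 6.179e-05). The call of *Vsnl1* was lost without EpCAM-negative library 3, its highest with 131 reads (log2 -0.34, adjusted p = 0.135). It was also lost without CD24lo library 3 (log2 -0.49, adjusted p = 0.0682) and with only the libraries compared (log2 -0.60, adjusted p = 0.0867). The basal markers *Krt5* and *Krt14* stood at 0.0126% and 0.0924% of their BSC level in these cells and *Dsg3* at 0, far under the 19.2% of *Cd109*, 12.6% of *Vsnl1*, 7.52% of *Ccdc3* and 42.3% of *Xkr4*. *Pdpn*, which is also read in other cell types, stood at 36.7% there, *Col17a1* at 3.80% and *Ngfr* at 1.39%. *Fads2b* was at 0 in the EpCAM-negative cells, as was *Dsg3*.

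Between trachea and lung, *Cd109* and *Vsnl1* were lower in Non-basal than in EpCAM-negative cells, by log2 values of -2.13 (SE 0.19, adjusted p = 1.457e-08) and -1.15 (SE 0.19, adjusted p = 3.144e-05). *Ccdc3* gave -0.06 (SE 0.18, adjusted p = 0.777), a ratio of 1.04 with a counting interval of 0.972 to 1.11. *Xkr4* gave -0.84 (SE 0.36, adjusted p = 0.0465) with libraries that overlapped, and the call was lost in 11 of 15 alternatives, among them the mouse as a block within each organ (log2 -0.77, adjusted p = 0.0753), DESeq2 (adjusted p = 0.0533), and the fit without EpCAM-negative library 3, the highest with 26 reads (log2 -0.38, adjusted p = 0.400). Non-basal cells exceeded CD24lo cells by log2 values of 2.14 for *Fads2b* (adjusted p = 3.977e-08), 0.90 for *Ccdc3* (adjusted p = 0.000539), 0.86 for *Cd109* (adjusted p = 0.00454) and 3.32 for *Xkr4* (adjusted p = 0.00106). *Vsnl1* went the other way, at -0.51 (SE 0.20, adjusted p = 0.0463), and its call was lost when CD24lo library 2, the highest with 63 reads, was left out (log2 -0.29, adjusted p = 0.303). Non-basal cells exceeded CD24hi cells for all 5 genes, from a ratio of 4.04 for *Vsnl1* to 64.8 for *Fads2b*, and exceeded Alveolar cells for all 5, although *Xkr4* (log2 1.54, adjusted p = 0.0167) was no longer called without the third Alveolar library (log2 1.22, adjusted p = 0.0738).

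**Figure D3:**
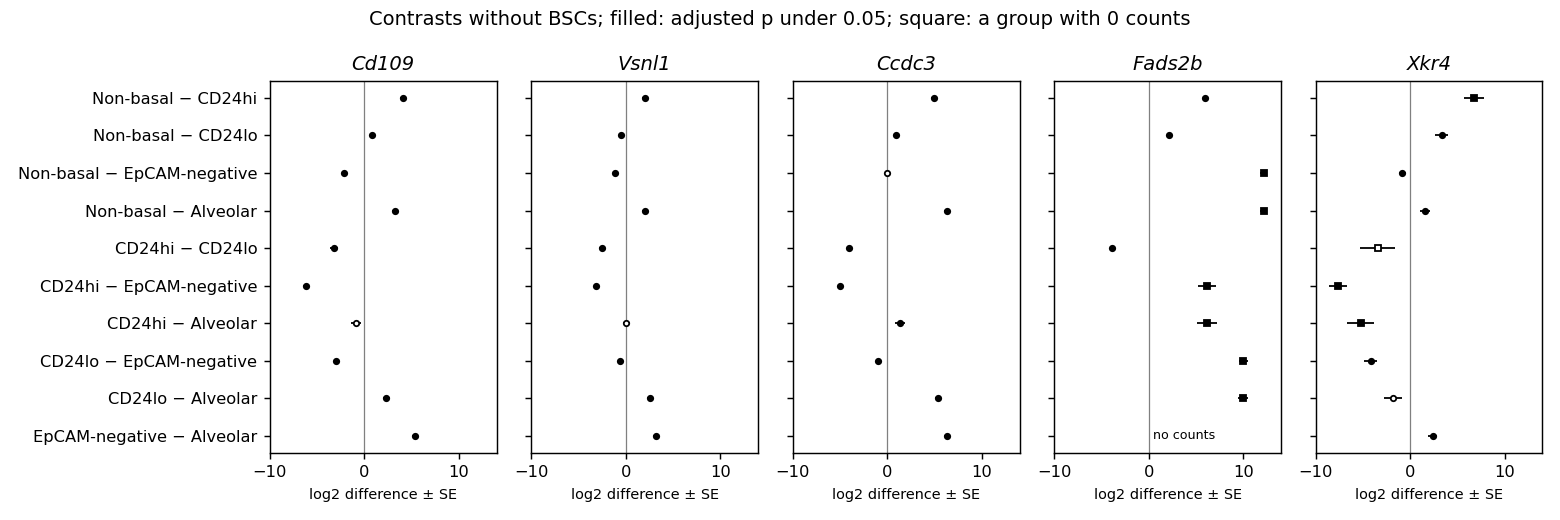
Log2 difference with its SE (horizontal axis) of the 5 genes in the 10 contrasts among the 5 populations other than BSCs, from the edgeR fit; filled symbols have an adjusted p-value under 0.05, open symbols do not, and squares mark a population with 0 counts, whose fitted value depends on the prior count. Of the 49 values, 44 are filled, and the open ones are *Ccdc3* between Non-basal and EpCAM-negative, *Cd109* and *Vsnl1* between CD24hi and Alveolar, and *Xkr4* between CD24hi and CD24lo and between CD24lo and Alveolar.

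Across the 15 libraries outside BSCs, Pearson's r of log2 CPM was 0.92 between *Vsnl1* and *Ccdc3*, 0.90 between *Cd109* and *Vsnl1* and 0.89 between *Cd109* and *Ccdc3*. *Xkr4* had an r of 0.80 with *Cd109*, and *Fads2b* had an r of 0.51 with *Ccdc3* and -0.05 with *Xkr4*. These points share populations, animals and depth, and describe the libraries only. The r of *Fads2b* with *Vsnl1* was 0.28 and that with *Cd109* 0.14.

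NGFR is also carried by nerve-associated cells, and *Vsnl1* is best known from neurons, so markers of those cells were read beside the genes. In the BSC libraries the Schwann and glial markers *Cdh19*, *Gfra3*, *Foxd3* and *Scn7a* had no read, and *Sox10*, the defining factor of that lineage, had 1 read in 1 library. The 6 neuronal markers summed to 3.61 to 4.20 CPM in BSC and 3.74 to 4.00 CPM in Non-basal libraries. Within that sum *Stmn2* was at 3.55 CPM in BSCs and 0.483 in Non-basal cells, the direction of *Vsnl1*, while *Snap25* (0.103 and 1.86 CPM) and *Elavl4* (0.0749 and 1.19 CPM) lay the opposite way, and their part in the level of *Vsnl1* was not tested. The 6 neuroendocrine markers summed to 2.20 to 2.39 CPM in BSC and 29.0 to 36.3 CPM in Non-basal libraries, opposite to *Vsnl1*. The whole list of 10 Schwann and glial markers summed to 297.3 to 308.1 CPM in BSC and 260.1 to 275.7 CPM in Non-basal libraries, of which *Mbp* and *Erbb3*, at 174.3 and 124.9 CPM in BSCs, made up nearly all, and both were also read in the lung epithelium (*Mbp* 86.1 and *Erbb3* 100.03 CPM in Alveolar cells).

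Genes averaging 1 CPM or more were searched, and those with the pattern most like each of the 5 over all 18 libraries were ranked by Pearson's r of log2 CPM, as a description. *Cdh13* (r = 0.98), an anchored cadherin, was nearest to *Cd109*, followed by *Abi3bp*, *Hlf*, *Nrg2* and *Lrig3*. *Cdh13* averaged 84.7 CPM in BSCs, 46.7 in EpCAM-negative and 12.6 in Non-basal cells. *Artn* (r = 0.97), a ligand of the GDNF family, led for *Vsnl1*, followed by *Fjx1*, *Rap2b*, *Fras1* and *Ephb1*. *Efna5* (r = 0.98), an ephrin, led for *Ccdc3*, followed by *Rnd3*, *Fras1*, *Unc5a* and *Tenm3*. *Fras1*, an extracellular matrix protein of the epithelial basement membrane, was in the lists of both *Vsnl1* and *Ccdc3*.

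*Fads2b* had the closest matches. *Rapgefl1* (r = 0.99), *Krt15* (r = 0.99), a keratin of basal cells, *Lhfpl1*, *Padi1* and *B3galt2* ranked nearest by r. *Padi1* (137.1 and 135.1 CPM) and *B3galt2* (114.5 and 113.0 CPM) averaged nearly the same in BSC and Non-basal libraries, which *Fads2b* did not. *Krt15* averaged 4152 CPM in BSCs, 1983 in Non-basal, 166.1 in CD24lo, 15.4 in CD24hi, 0.815 in EpCAM-negative and 1.36 in Alveolar cells. Over the 15 libraries outside BSCs, *Ern2* (r = 0.99) and *Otx1* (r = 0.99) were nearest. Unlike *Fads2b*, these averaged 106.2 and 127.4 CPM in Non-basal libraries against 46.8 and 102.1 CPM in BSC libraries, a difference that is given without a test. The nearest genes of *Xkr4*, led by *Mapk14* (r = 0.97) at 138.7 CPM in BSCs and 57.6 in CD24hi cells, spanned a narrower range than *Xkr4* itself, whose counts were low.

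*Cd109* acts on TGF-beta, a secreted growth factor that is held latent in the matrix and signals through paired receptors and SMAD factors. All 30 genes listed for this axis were tested, and BSCs exceeded Non-basal cells for 18 and fell below them for 2, a share of 60% and 6.67%, where 21.9% of all genes tested were higher and 26.2% lower. The median log2 value of the list was 0.43 and that of all genes -0.02. Scaled by library size only, the median of all genes moved to 0.31 and the split of the list was 23 to 1. Among ligands, *Tgfb1* stood at 13.7 RPKM in the BSC mean and 2.90 in the Non-basal mean (log2 2.24, SE 0.25, adjusted p = 8.552e-07), while *Tgfb2* and *Tgfb3* did not pass (adjusted p = 0.0940 and 0.0527).

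The signalling receptors *Tgfbr1* and *Tgfbr2* did not pass either (17.8 and 14.2 RPKM, adjusted p = 0.191, and 51.4 and 48.3 RPKM, adjusted p = 0.382), whereas the co-receptor *Tgfbr3* was higher (7.29 and 2.00 RPKM, log2 1.87, SE 0.19). The latent TGF-beta binding proteins moved in opposite directions, with *Ltbp4* higher (129.2 and 20.8 RPKM, log2 2.64, SE 0.36, adjusted p = 1.068e-05) and *Ltbp2* lower (0.0326 and 1.58 RPKM, log2 -5.55, SE 0.34, adjusted p = 8.295e-10). *Thbs1* and the integrin chains *Itgb6*, *Itgb8* and *Itgav*, which release TGF-beta from its latent form, were higher by log2 values of 2.03, 0.59, 1.49 and 0.88. Inhibitors of the pathway were higher as well, with *Smad7* at 0.60, *Smad6* at 0.72 and *Ski* at 0.89. Among target genes, *Tgfbi* (log2 3.45, SE 0.15, adjusted p = 1.904e-11) and *Pmepa1* (log2 0.90) were higher and *Ccn2* was lower (log2 -0.56, adjusted p = 0.00286).

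Against Alveolar cells, the other population named in the study's main comparison, 15 of the 30 genes were higher and 9 lower in BSCs, where 30.5% of all genes were higher and 35.6% lower. Scaled by library size only, the split was 18 to 6 and *Smurf1* turned direction. *Eng*, *Ltbp1* and *Ltbp2* were lower by log2 values of -7.11, -6.81 and -6.28, and *Tgfbi* was lower here by -0.60, while *Ccn2* was higher by 2.64. EpCAM-negative cells held the most *Eng*, *Ltbp1* and *Ltbp2*, at 75.0, 66.4 and 33.8 RPKM, against 14.8, 4.34 and 2.61 in Alveolar cells. Mesenchymal markers summed to 677.8 to 1115 CPM in Alveolar and 332.7 to 339.1 in BSC libraries. Endothelial markers summed to 125.1 to 253.5 and 0.819 to 1.19 CPM. The part of such cells in these differences was not tested. Of the relatives of *Cd109* in the alpha-2-macroglobulin family, none was higher in BSCs. Of 9 listed, 5 were tested, and by edgeR 0 exceeded and 3 fell below their Non-basal level (60%, against 26.2% of all genes). The complement genes *C3* (23.5 and 119.9 RPKM, log2 -2.35, SE 0.15), *C4b* (0.0628 and 0.249 RPKM, log2 -1.98) and *Hc* (0.0206 and 0.266 RPKM, log2 -3.62) were the 3. *C4b* and *Hc* were thus low in both tracheal populations. *A2m* itself, at 0.00203 RPKM in BSCs, and *Pzp* did not pass but also had negative log2 values (-1.69 and -0.55). Against Alveolar cells all 5 were lower, where 35.6% of all genes were. *Cd109* and *A2m* were 60.6% identical over 3919 aligned coding bases, with no exact run above 12 bases.

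*Vsnl1* belongs to the neuronal calcium sensors, small proteins with EF hands, some of which move to membranes when calcium binds. The family has 12 other listed genes, of which 11 were tested, and BSCs exceeded Non-basal cells for 3 (27.3%, against 21.9% of all genes) and fell below them for 2 (18.2%, against 26.2%). *Ncs1* was at 4.89 ± 0.196 and 1.47 ± 0.0959 RPKM (SD, n = 3; log2 1.73, SE 0.22, adjusted p = 4.78e-06). *Kcnip2* and *Kcnip3*, whose products bind potassium channels, were higher too (2.29 and 0.649 RPKM, and 1.07 and 0.731 RPKM). *Ncald*, the gene of neurocalcin delta, was lower (log2 -1.98, SE 0.31, adjusted p = 4.053e-05), as was *Guca1a* (0.633 and 1.46 RPKM), and *Hpcal1* did not pass (18.9 and 24.5 RPKM, adjusted p = 0.0664). Against Alveolar cells 3 were higher (27.3%, against 30.5% of all genes) and 5 lower (45.5%, against 35.6%). Among them *Ncs1* (log2 3.82) and *Kcnip3* (log2 3.95) were higher and *Hpcal1* was lower (log2 -1.19).

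*Hpcal1* is read here because its sequence is close to that of *Vsnl1* and could share reads with it. Their coding sequences were 73.7% identical over 567 aligned bases, and the longest exact run was 28 bases, shorter than the 100-base reads. The most alike stretch of read length is printed with its 14 mismatched bases in capitals. It covers coding bases 159 to 258 of both genes, counted from the start codon, at chr12:11332121-11386818 on the minus strand in exons 2 and 3 of *Vsnl1* and at chr12:17786329-17786428 on the plus strand in exon 2 of *Hpcal1*.
Vsnl1: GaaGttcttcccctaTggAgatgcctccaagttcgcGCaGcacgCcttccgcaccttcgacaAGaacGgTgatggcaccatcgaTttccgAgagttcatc
Hpcal1: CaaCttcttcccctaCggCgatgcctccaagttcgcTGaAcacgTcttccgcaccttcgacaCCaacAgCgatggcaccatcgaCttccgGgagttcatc

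No 100-base word of *Vsnl1*, *Cd109*, *Fads2b* or *Xkr4* occurred in a transcript of another gene, and 60.6% of those of *Ccdc3* did, all in *Gm26776*. *Ccdc3* is a secreted protein with reported ties to p63 and to TNF and NF-kB signalling, so both groups were listed. All 12 genes of p63 and the basal attachment structures were higher in BSCs than in Non-basal cells, where 21.9% of all genes were. Their median log2 value was 2.60. Some of them are basal markers and their rise describes the sort. *Trp63* was at 97.6 ± 9.40 and 12.4 ± 4.11 RPKM (SD, n = 3; log2 2.98, SE 0.26, adjusted p = 5.364e-08), and *Col17a1* at 135.2 and 11.3 RPKM (log2 3.58, SE 0.17). Against Alveolar cells the split was 10 to 1 (83.3% and 8.33%, against 30.5% and 35.6% of all genes), and 11 to 0 when scaled by library size only.

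The 20 NF-kB and TNF genes, all tested, split 4 to 4 between higher and lower in BSCs against Non-basal cells and 5 to 5 against Alveolar cells. These were shares of 20% and 25% each way. Of all genes, 21.9% were higher and 26.2% lower against Non-basal cells, and 30.5% and 35.6% against Alveolar cells. Nothing is read from gaps of this size in a list of 20 genes. With the mouse as a block within each organ, 11 genes in place of 8 and 14 in place of 10 were called. Scaled by library size only, the splits were 7 to 2, with *Ikbkb* turning direction, and 8 to 4. Against Non-basal cells, the targets *Icam1* (226.0 ± 51.0 and 68.7 ± 21.9 RPKM, SD, n = 3; log2 1.72, SE 0.23, adjusted p = 8.292e-06), an adhesion molecule, and *Vcam1* (log2 1.26, SE 0.34, adjusted p = 0.00515) were higher. The receptor gene *Tnfrsf1b* (1.82 and 6.30 RPKM, log2 -1.79, SE 0.14) and *Ikbkg* (log2 -1.05, SE 0.12), a subunit of the kinase complex, were lower there, and the factor genes *Rela*, *Relb*, *Nfkb1*, *Nfkb2* and *Rel* did not pass. Against Alveolar cells the chemokine gene *Ccl20* (log2 3.54, SE 0.36) and *Rel* (log2 2.55, SE 0.29) were higher, as was *Nfkb1* (log2 0.51). *Cxcl1* (log2 -2.46, SE 0.36) and *Vcam1* (log2 -2.09, SE 0.32) were lower, and *Icam1* did not pass (log2 -0.46, adjusted p = 0.0836).

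*Fads2b* is named after *Fads2*, which with *Fads1* encodes the desaturases that turn dietary linoleic and linolenic acid into long polyunsaturated fatty acids. Of 20 other genes listed for this synthesis, 19 were tested, and BSCs exceeded Non-basal cells for 7 (36.8%, against 21.9% of all genes) and fell below them for 4 (21.1%, against 26.2%). *Fads2* averaged 44.9 ± 1.09 RPKM (SD, n = 3) over BSC libraries and 7.54 ± 0.692 over Non-basal libraries (log2 2.57, SE 0.16, adjusted p = 6.028e-10), and *Fads1* at 30.2 ± 0.598 and 7.77 ± 1.31 RPKM (log2 1.96, SE 0.14, adjusted p = 4.144e-09). The elongase genes *Elovl6* (log2 1.71), *Elovl7* (log2 1.25), *Elovl4* (log2 0.89) and *Elovl1* (log2 0.44) were higher and *Elovl5* (log2 -0.87) was lower. *Fads6* (log2 -3.12, SE 0.26) and *Acsl1* (log2 -1.65, SE 0.12) were lower too. The split was 12 to 4 when scaled by library size only.

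Unlike *Fads2b*, the related desaturases were read in every population. *Fads2* was highest in EpCAM-negative cells, at 71.9 ± 3.37 RPKM (SD, n = 3), and stood at 39.6 ± 4.66 in Alveolar cells, where it did not differ from BSCs by the test (adjusted p = 0.285). *Fads1* was highest in Alveolar cells, at 117.4 ± 12.6 RPKM, and lower in BSCs than there (adjusted p = 8.315e-10). Against Alveolar cells 5 genes of the list were higher and 12 lower in BSCs (26.3% and 63.2%, against 30.5% and 35.6% of all genes), and 7 and 12 when scaled by library size only. *Scd1*, the stearoyl desaturase, was at 2.20 RPKM in BSCs and 2746 in Alveolar cells (log2 -10.28, SE 0.32).

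**Figure D4:**
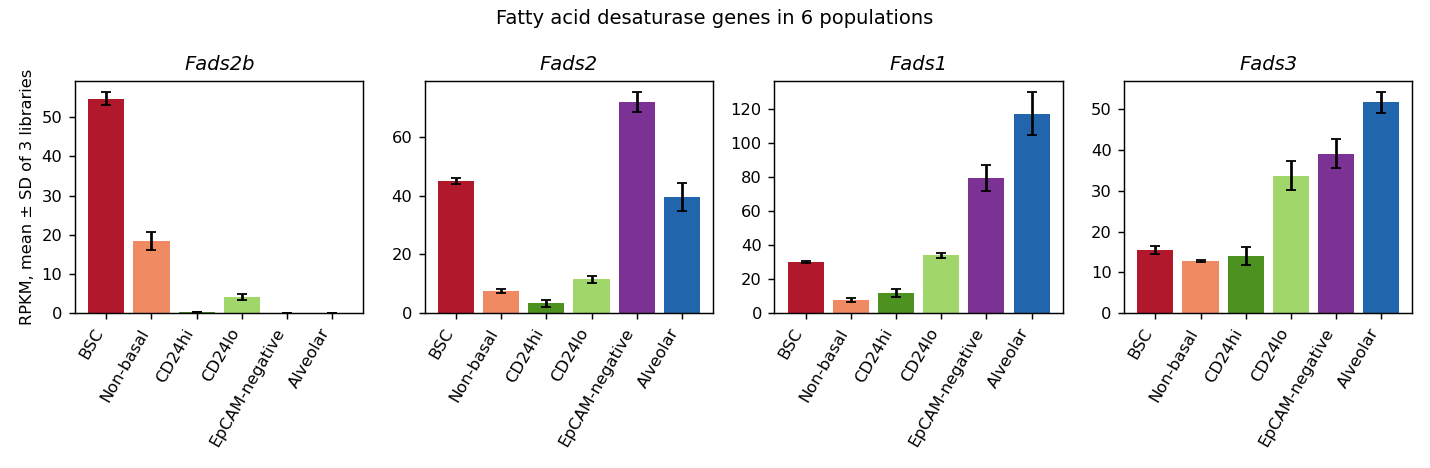
RPKM of *Fads2b*, *Fads2*, *Fads1* and *Fads3* in the 6 populations (bars: mean of 3 libraries; error bars: SD; each panel has its own linear axis from 0). *Fads2b* falls from 54.7 in BSCs to 18.5 in Non-basal and 4.19 in CD24lo cells and is 0 in EpCAM-negative and Alveolar cells, where *Fads2* stands at 71.9 and 39.6.

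*Fads2b* had 0 counts in EpCAM-negative and Alveolar cells, where *Fads2* and *Fads1* were abundant. Their coding sequences were compared, and how reads were assigned was not tested. *Fads2b* was 67.2% identical to *Fads2* over 1319 aligned coding bases and 63.6% to *Fads1* over 1316, with longest exact runs of 16 and 17 bases. The most alike stretch of read length between *Fads2b* and *Fads2* had 18 mismatched bases, in capitals. It covers coding bases 1216 to 1315 of *Fads2b*, at chr2:85485530-85487054 on the minus strand, and 1084 to 1183 of *Fads2*, at chr19:10064786-10065675 on the minus strand, in exons 10 and 11 of both genes.
Fads2b: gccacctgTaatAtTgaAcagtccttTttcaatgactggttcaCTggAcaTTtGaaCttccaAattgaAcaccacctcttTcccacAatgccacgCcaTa
Fads2: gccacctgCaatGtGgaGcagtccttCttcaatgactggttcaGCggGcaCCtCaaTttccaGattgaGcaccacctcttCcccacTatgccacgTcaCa

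*Xkr4* belongs to the XK family. In cells, the caspase-cut relative *Xkr8* works in a complex with basigin (*Bsg*) or neuroplastin (*Nptn*), and flippases such as the P4-type ATPases work against scramblases. Of 28 other genes listed, 24 were tested, and BSCs exceeded Non-basal cells for 3 (12.5%, against 21.9% of all genes) and fell below them for 7 (29.2%, against 26.2%). Scaled by library size only, the split was 11 to 3, so that the direction of this list depended on the scaling. Within the XK family, *Xkr5* was higher (0.432 and 0.231 RPKM, log2 0.89, SE 0.30, adjusted p = 0.0220), *Xk* lower (2.01 and 3.29 RPKM, log2 -0.71, SE 0.22, adjusted p = 0.0142), and *Xkr8* did not pass (0.446 and 0.410 RPKM, adjusted p = 0.646). *Xkr4*, at 0.852 RPKM, was after *Xk* the 2nd highest XK family gene in BSCs per length.

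*Bsg* was lower in BSCs (291.9 and 379.2 RPKM, log2 -0.38, SE 0.10, adjusted p = 0.00356) and *Nptn* did not pass (62.0 and 51.8 RPKM, adjusted p = 0.0532). The flippase gene *Atp8b2* was higher (log2 1.53, SE 0.12) and *Atp8a1* (log2 -1.18, SE 0.13) and *Atp8a2* (log2 -2.96, SE 0.35) were lower. Against Alveolar cells the split was 8 to 11 (33.3% and 45.8%, against 30.5% and 35.6% of all genes), and 10 to 6 when scaled by library size only. *Xkr4* and *Xkr6* were 67.1% identical over 1804 aligned coding bases, with no exact run above 14 bases.

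**Figure D5:**
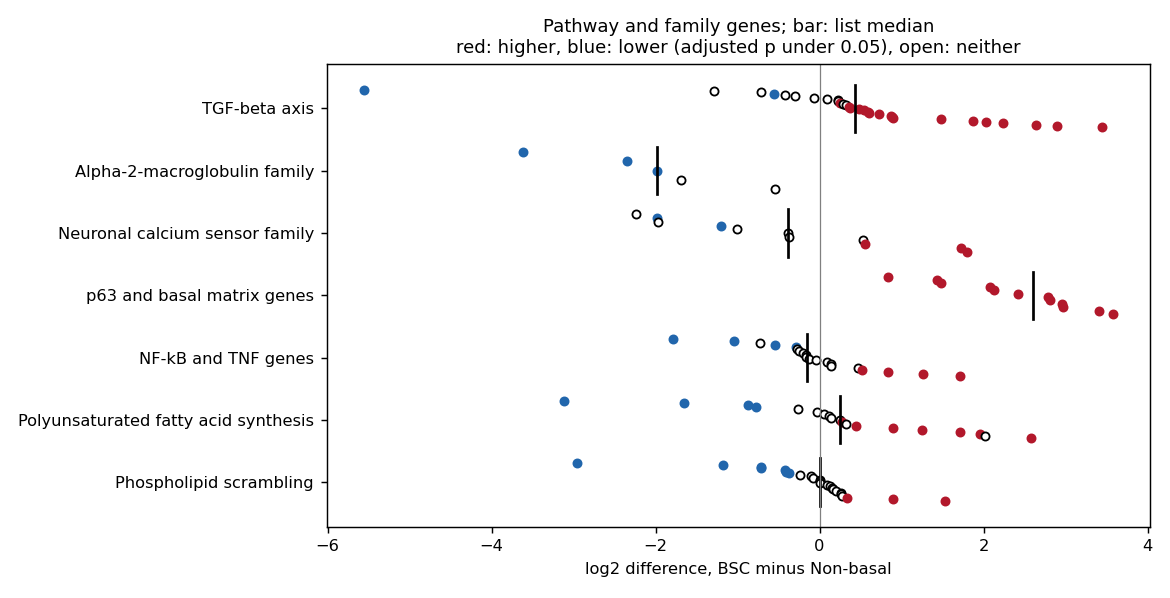
Log2 difference between BSC and Non-basal cells (horizontal axis) of the tested genes of 7 lists, 1 point per gene, with a bar at each list's median; red points were higher and blue points lower at an adjusted p-value under 0.05. The 12 p63 and basal matrix genes are all red, 18 of 30 TGF-beta genes are red and 2 blue, and the phospholipid scrambling genes centre near 0 with 3 red and 7 blue; scaled by library size only, their split is 11 to 3.

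The genes next to the 5 on the chromosome were read to see whether the excess in BSCs was shared with the neighbourhood. These neighbours were looked at after the values of the 5 were known. They were the nearest counted protein-coding genes on each side, and some lay far off. *Cox7a2* and *Col12a1* were 1039 and 882.7 kb from *Cd109*, *Cyria* 825.6 kb from *Vsnl1* and *Sox17* 819 kb from *Xkr4*. All 4 neighbours of *Vsnl1* were higher in BSCs than in Non-basal cells, where 21.9% of all genes were: *Smc6* (log2 0.80, SE 0.15), *Gen1* (log2 1.06, SE 0.19), *Rad51ap2* (log2 3.67, SE 0.78, at 0.115 RPKM in BSCs) and *Cyria* (log2 2.16, SE 0.24). *Fads2b* lies among olfactory receptor genes, and *Olfr994*, *Olfr995* and *Olfr996* had no read in any library. *Olfr998* averaged 0.0461 RPKM in BSCs and 0 in the other populations, and was not tested. Of the 4 neighbours of *Ccdc3*, *Mcm10* was higher (log2 0.97) and *Optn* and *Camk1d* lower (log2 -0.67 and -0.66). Next to *Cd109*, *Col12a1* (log2 2.80, SE 0.22) and *Eef1a1* (log2 0.47, SE 0.10) were higher and *Slc17a5* and *Cox7a2* did not pass. Of the nearest tested genes beside *Xkr4*, *Rp1* was lower (log2 -5.24, SE 0.52), and *Sox17* had no read in the tracheal libraries.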

How the data were processed

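Sorted-cell RNA was sequenced as single-end 100-base reads, which the authors aligned to mm10 with Rsubread and summarised with featureCounts and its in-built RefSeq annotation, after base calling with bcl2fastq 1.8.4. The deposited values are raw counts per gene, one table per library. A strand setting is not given in the sources used here. Symbols came from the RefSeq table for GRCm38.p6, which matched 25275 of 27179 genes.

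Genes with more than 0.2 CPM in at least 3 libraries were kept (17989). All 18 libraries entered a single edgeR 4.0.16 fit (R 4.3.3) with TMM scaling and the quasi-likelihood F test, with Benjamini-Hochberg adjustment over all genes tested and a threshold of 0.05. SE is the log2 difference divided by the square root of F. RPKM used TMM-scaled library sizes and the deposited gene lengths. The procedure was tested on simulated data. Counting intervals are exact, at 95%. A group without reads was set to a floor of 3 counts over the group.

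The 5 genes, and the gene and marker lists, were chosen with earlier results of these data known. Genes were named by rule: from each list up to 4 called genes with the largest log2 difference per comparison and a mean of at least 1 CPM, direct paralogues or partners of the 5 genes, and the 5 genes most like each over 18 libraries with the 3 most like over 15. Other list genes were named after their values were seen, to describe the list by role. Neighbours were chosen after values were seen. Some list genes are counted in their lists but not reported here by name. Libraries of a group came from 3 mice. The p-values rest on a spread within groups that is estimated over all 6 groups together, BSC libraries included. The main fit had no term for the mouse and so treated libraries of the same mouse as independent. The labels give BSC and Non-basal libraries of the same mouse, whose deviations correlated at 0.117 to 0.336, and the 4 lung populations of the same mice, at -0.0593 to 0.278. No pair of replicates agreed within sampling noise (lowest chi-square per degree of freedom 3.67). Pairs with library 1 gave 24.8 and 31.4 in BSC, against 5.98 for libraries 2 and 3. Non-basal, CD24hi and CD24lo pairs lay the same way. In Alveolar, pairs with library 2 gave 41.1 and 39.2, against 6.05 for libraries 1 and 3. EpCAM-negative pairs gave 3.67 to 7.93. Alternatives were RLE factors, library size alone, other filters, DESeq2 1.42.0, limma 3.58.1 with voom, the mouse as replicate block (mouse terms summing to 0 within trachea and within lung, so that contrasts between organs can still be estimated), thinned tracheal libraries, only the libraries compared, and each library left out.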

Additional observations from a re-analysis of the deposited data

How the results depend on the processing

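Of 49 tests of the 5 genes among the populations other than BSCs, 43 kept their call in every alternative and 0 reversed. The number called was 44, 40 to 44 under other settings, 41 to 44 with 1 library left out and 43 with the replicate block. The block changed no other call of the 5 genes than that of *Xkr4* between Non-basal and EpCAM-negative cells, and moved the calls between BSC and Non-basal cells from 8668 to 8896. *Vsnl1* between Non-basal and CD24lo cells ranged from -0.62 to -0.29 and was lost in 8 settings, and *Xkr4* between Non-basal and EpCAM-negative cells ranged from -1.12 to -0.38 and was lost in 11. With only the libraries compared, 16 phospholipid scrambling genes were called between BSC and Non-basal cells in place of 10, and the cause was not tested. Scaled by library size only, 7780 genes were called in favour of BSCs and 2989 in favour of Non-basal cells (3948 and 4720 with TMM), 7924 and 4363 between BSC and Alveolar (5485 and 6410), 4192 and 8153 between Non-basal and CD24hi (5659 and 6640), 7002 and 3233 between CD24hi and CD24lo (4998 and 4901), and 7285 and 3858 between CD24hi and Alveolar (5479 and 5652). Counts of 0 to 26 reads limit what can be said of *Xkr4* outside BSCs.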
